A study of Mus musculus with 12 samples.

Results

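The acyl-CoA thioesterases described here are 9 listed genes of the mouse Acot family: Acot1, Acot2, Acot3, Acot4, Acot7, Acot8, Acot9, Acot12 and Acot13. They were chosen by name, through the gene symbol that the platform annotation gives to a probe set, and each gene was represented by its probe set of highest mean over all arrays. Of the 9, 8 had a probe set with a single symbol, among 22180 genes measured in that way. The only probe set found for Acot8, a peroxisomal thioesterase, is listed for both Acot8 and Snx21, so no value is named for it.

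Liver RNA of male C57BL6 mice was measured on 12 Affymetrix arrays in 4 groups of 3. Low-fat control mice ate a diet with 10% of its energy as fat, and low-fat MSX mice ate that diet with 0.5% (w/w) of MSX, a food-grade maple syrup extract enriched in phenolic compounds. High-fat control mice ate a diet with 45% of its energy as fat, and high-fat MSX mice ate the high-fat diet with the same share of extract. Feeding was free, lasted 12 weeks and ran from 6 to 18 weeks of age in all groups. No genotype other than the strain is given, and whether the RNA of several mice was pooled is not given either.

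Acyl-CoA thioesterases split an acyl-CoA into a free fatty acid and coenzyme A, the reverse of the activation step that acyl-CoA synthetases carry out. The family falls into a type I group with an alpha/beta-hydrolase fold, to which Acot1, Acot2, Acot3 and Acot4 belong, and a type II group with a hotdog fold, to which Acot7, Acot8, Acot9, Acot12 and Acot13 belong. In liver, type I genes are known to be induced by fasting and by ligands of PPAR alpha, the nuclear receptor that switches on fatty acid oxidation. Acot1 is cytosolic, Acot2 mitochondrial, and Acot3 and Acot4 peroxisomal.

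The 4 type I members lie next to each other on chromosome 12. In the RefSeq order of GRCm38.p6 the run reads Acot2, Acot1, the long noncoding RNA Gm40474, Acot4, Acot3, Acot5, the pseudogene Gm8385 and Acot6, so that 4 of the 6 Acot genes in it are members. The other members with a RefSeq promoter window lie elsewhere, Acot7 on chromosome 4, Acot8 on chromosome 2, Acot9 on chromosome X and Acot12 on chromosome 13. The promoters of the 4 neighbours are shown because these genes carried the lower values described below. Each window runs from 250 bases before to 50 bases after a RefSeq start on the plus strand of GRCm38.p6, 5′ to 3′, at chr12:83987611-83987910 for Acot2, chr12:84009252-84009551 for Acot1, chr12:84038129-84038428 for Acot4 and chr12:84051894-84052193 for Acot3. Capitals mark AGGTCA, the core hexamer that nuclear receptors bind, searched on both strands and here present as its reverse complement.

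Acot2: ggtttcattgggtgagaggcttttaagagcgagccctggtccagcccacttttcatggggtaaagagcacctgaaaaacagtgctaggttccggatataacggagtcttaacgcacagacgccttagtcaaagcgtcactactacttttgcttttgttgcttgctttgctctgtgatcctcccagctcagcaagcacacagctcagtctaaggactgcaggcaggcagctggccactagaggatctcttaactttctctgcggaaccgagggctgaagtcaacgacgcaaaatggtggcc
Acot1: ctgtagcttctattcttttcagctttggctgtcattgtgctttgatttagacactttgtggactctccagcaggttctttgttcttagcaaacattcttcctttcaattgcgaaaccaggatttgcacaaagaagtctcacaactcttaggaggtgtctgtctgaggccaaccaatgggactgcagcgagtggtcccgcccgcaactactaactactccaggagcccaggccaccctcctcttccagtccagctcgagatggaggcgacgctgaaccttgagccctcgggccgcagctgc
Acot4: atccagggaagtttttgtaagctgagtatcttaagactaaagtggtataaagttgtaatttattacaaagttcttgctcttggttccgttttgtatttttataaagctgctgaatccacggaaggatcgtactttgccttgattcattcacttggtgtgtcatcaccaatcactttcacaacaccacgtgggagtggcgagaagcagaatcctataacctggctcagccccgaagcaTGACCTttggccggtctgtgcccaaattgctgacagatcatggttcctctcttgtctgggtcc
Acot3: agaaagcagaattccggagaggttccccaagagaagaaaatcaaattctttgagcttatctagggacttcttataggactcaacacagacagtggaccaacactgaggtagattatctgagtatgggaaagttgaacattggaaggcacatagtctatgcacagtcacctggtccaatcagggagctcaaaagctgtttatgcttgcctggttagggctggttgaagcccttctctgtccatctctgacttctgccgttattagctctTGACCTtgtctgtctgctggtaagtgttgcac

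The hexamer was found in the windows of Acot4 and Acot3, where it starts at position −13 and 18 from the start site, and not in those of Acot1 and Acot2. A second RefSeq window of Acot3, chr12:84051901-84052200, is not shown and held the same hexamer at position 11. Acot12, a type II member, also held it, at position −110. Of 27025 genes with a window, 18.1% held the hexamer. The direct repeat bound by PPAR alpha with its partner RXR was searched on both strands as AGGNCA, any 1 base and AGGNCA again, so that each arm can overlap the hexamer. Only exact matches were counted. The repeat was in no window of the 8 members that had one, and 0.451% of all genes held it. After its hexamer the Acot4 window continues as ttggccg, which differs from a full repeat on that strand in 1 letter. How many genes hold such a near match was not counted. In global alignments with gaps, the 6 pairs of windows within the run shared 48.7% to 51.3% of their 300 bases, and the 22 other pairs of members' windows 43.7% to 52.3%. The range within the run lay inside the range of the other pairs.

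All values below are log2 probe set values as deposited, and differences are on the log2 scale, so that −1 means a halved level. Levels of different genes are given no order, and a probe set's level is set only against the median of all probe sets, to mark a dim signal. The arrays had medians between 4.68 and 4.75 and correlated with each other at 0.973 to 0.984. Hepatocyte markers had mean levels of 11.6 to 11.9 on every array, and adipocyte markers 4.25 to 4.91, near the median of all probe sets of 4.72. In these bulk samples, fewer cells of a type and less RNA per cell cannot be told apart. A gene was called at an adjusted p under 0.05 in limma, with Benjamini-Hochberg adjustment over the 22180 genes.

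Acot1 was lower on every array with extract than on every array without it. Its values were 9.06, 9.0 and 8.83 in the low-fat control arrays and 7.03, 6.87 and 7.10 in the low-fat MSX arrays. They were 7.92, 8.25 and 8.58 in the high-fat control arrays and 7.39, 7.61 and 7.27 in the high-fat MSX arrays. All low-fat MSX arrays thus lay below all high-fat MSX arrays, and these below all controls. The group means in order were 8.97 ± 0.12 (SD, n = 3) in low-fat control, 8.25 ± 0.33 in high-fat control, 7.42 ± 0.17 in high-fat MSX and 7.00 ± 0.12 in low-fat MSX. None of the 4 groups overlapped another, which held for 0.0451% of all genes, or 10 of 22180.

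Acot2, the mitochondrial enzyme, showed a tight control level and a lower level with extract on both diets. Its values were 10.28, 10.24 and 10.30 in the low-fat control arrays and 8.81, 9.47 and 8.08 in the low-fat MSX arrays. On the high-fat diet they were 10.33, 10.18 and 10.02 without extract and 9.04, 9.29 and 9.37 with it. All 6 arrays with extract lay below all 6 without. The low-fat MSX arrays were far apart (8.78 ± 0.70), whereas the low-fat controls were not (10.27 ± 0.03), and the high-fat groups had means of 10.18 ± 0.16 and 9.23 ± 0.17. In order of level the controls of both diets overlapped, as did the MSX groups of both diets.

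Acot3, a peroxisomal enzyme, also had lower means with extract on both diets, with a much larger spread. Its values were 8.57, 9.02 and 7.93 in the low-fat control arrays and 7.55, 7.93 and 5.96 in the low-fat MSX arrays. In the high-fat groups they were 7.95, 7.92 and 8.13 without extract and 7.52, 6.57 and 7.40 with it. The groups did not overlap on the high-fat diet and met at 7.93 on the low-fat diet. The third low-fat MSX array, at 5.96, was the lowest of all, and the same array was also the lowest for Acot2 and Acot4, but not for Acot1. The spread within groups of Acot3 (pooled SD 0.65) was larger than that of 99.6% of genes, against a median of 0.19 over all genes.

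Acot4, which is known to act on succinyl-CoA and dicarboxylic acyl-CoAs in peroxisomes, varied less. Its values were 7.92, 7.88 and 7.64 in the low-fat control arrays and 7.38, 7.23 and 6.85 in the low-fat MSX arrays. On the high-fat diet they were 7.49, 7.48 and 7.68 without extract and 7.58, 7.13 and 7.14 with it. The groups were apart on the low-fat diet and overlapped on the high-fat diet. A second probe set of Acot4 gave means of 6.50 ± 0.60 in low-fat control, 5.83 ± 0.21 in low-fat MSX, 6.04 ± 0.06 in high-fat control and 5.87 ± 0.29 in high-fat MSX, n = 3 each. Its low-fat groups overlapped.

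Among the type II members Acot7, Acot12 and Acot13 varied over less than 0.5 log2 units. Acot7, a cytosolic thioesterase best known from brain, ranged from 6.14 to 6.53 over the 12 arrays. Its low-fat MSX arrays, at 6.33, 6.47 and 6.31, lay just above the low-fat controls, at 6.27, 6.27 and 6.31. Acot13, which is associated with mitochondria and binds phosphatidylcholine transfer protein, ranged from 8.69 to 9.12, and its groups overlapped in all comparisons of diet and extract.

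Acot12, the cytosolic acetyl-CoA hydrolase of liver, had a narrow range of 0.29 over the 12 arrays. Its values were 10.70, 10.80 and 10.61 in low-fat control, 10.70, 10.67 and 10.66 in low-fat MSX, 10.51, 10.50 and 10.57 in high-fat control, and 10.65, 10.73 and 10.66 in high-fat MSX. The pooled SD within groups was 0.055, a percentile of 0.491 among all genes. The high-fat controls lay below both the low-fat controls and the high-fat MSX arrays without overlap. The difference from low-fat to high-fat control was −0.18 (SE 0.10), and that from high-fat control to high-fat MSX was 0.15 (SE 0.10).

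Acot9, a mitochondrial thioesterase, had a mean of 4.39 over the 12 arrays, below the median of all probe sets. It ranged from 3.92 to 5.10, and the highest value came from the first high-fat control array, while the other arrays of that group were at 4.22 and 4.30. On the same array the median marker of the stellate cell list stood 0.84 above its mean over the 12 arrays, that of the cholangiocyte list 0.74, that of the macrophage list 0.55, that of the lymphocyte list 0.34 and that of the endothelial list 0.13. The medians of the adipocyte list and of the pancreas and gut list were both −0.03 there, and that of the hepatocyte list was −0.14. By mean level, however, the adipocyte list was at 4.91 on this array, the highest of the 12. It was at 4.42 and 4.36 on the other high-fat control arrays. These shifts are of marker lists. The part of these marker shifts in the Acot9 value was not tested. Without this array the diet difference of Acot9 in mice without extract went from 0.20 to −0.08, and the extract difference on the high-fat diet from −0.31 to −0.03.

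**Figure D1:**
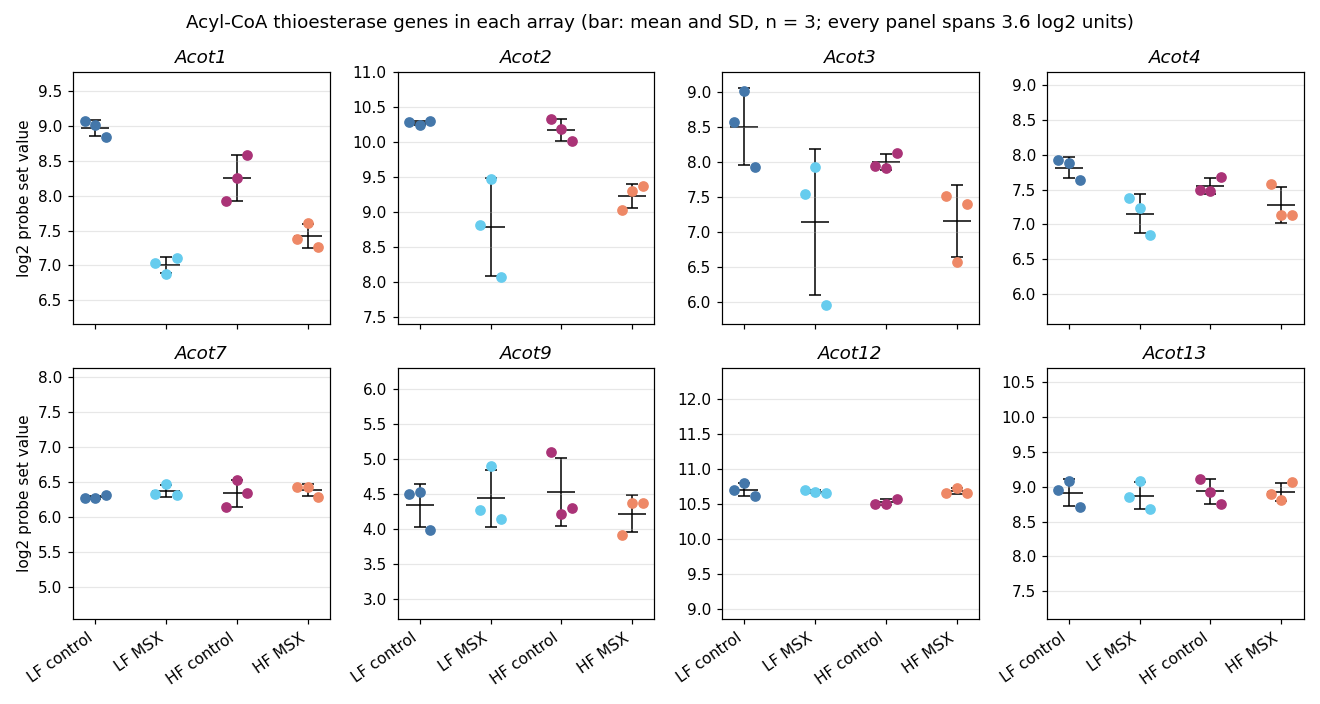
Log2 value of the 8 measured thioesterases in the 12 arrays, with a panel per gene, a point per array and a line at each group mean (n = 3). Acot1 and Acot2 show all 6 MSX arrays below all 6 control arrays, Acot3 and Acot4 are low in most MSX arrays, and Acot12 stays between 10.5 and 10.8.

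For the extract on the low-fat diet 2 of the 8 members were called, Acot1 and Acot2, both lower. In limma, 0.158% of all genes were called in this comparison (35 of 22180, with 21 lower, 0.0947%). Acot1 fell by 1.96 on the log2 scale (SE 0.16, 95% interval −2.31 to −1.62), a level 3.90-fold lower with extract, with a limma adjusted p of 0.000286. It had the lowest p of all genes and the most negative difference. Acot2 fell by 1.49 (SE 0.25, interval −2.03 to −0.95), 2.81-fold lower, with an adjusted p of 0.0442 in limma.

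Acot3 differed by −1.36 (SE 0.42, interval −2.27 to −0.45) and Acot4 by −0.66 (SE 0.16, interval −1.01 to −0.31), with adjusted p of 0.396 and 0.215 in limma. For both genes the interval lay below 0, but the difference did not pass the adjustment over all genes. The second probe set of Acot4 differed by −0.67 (SE 0.24), with a limma adjusted p of 0.507 over all probe sets with 1 symbol. The 4 type II members differed by −0.04 to 0.10, each with an interval that held 0. Groups did not overlap for 3 members that were lower (Acot1, Acot2 and Acot4), where 6.73% of all genes were lower without overlap. They did not overlap for 1 that was higher (Acot7), against 7.13% of genes. Of the 8 members, 4 (the type I genes) had an unadjusted p under 0.05, as did 8.05% of genes. The median difference of the 8 members was −0.35, and that of all genes was 0.00.

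The Acot1 call held when any 1 of the 12 arrays was left out, with adjusted p of 0.000108 to 0.0049. The Acot2 call sat at the threshold: it held in 2 of the 12 fits, without the second (adjusted p 0.00627) or the third (0.0411) low-fat MSX array, and was lost in the other 10, with adjusted p of 0.058 to 0.164. Without the third low-fat MSX array Acot3 differed by −0.77 in place of −1.36. The count of all genes called ranged from 6 to 28 in these 12 fits.

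The extract on the high-fat diet gave the 4 type I genes lower means, and 0 of the 8 members were called. Limma called 0.0361% of all genes here, or 8, and 2 members (Acot1 and Acot2) had an unadjusted p under 0.05, as did 6.99% of genes. Acot1 differed by −0.83 (SE 0.16, interval −1.17 to −0.48, adjusted p 0.143) and Acot2 by −0.95 (SE 0.25, interval −1.49 to −0.40, adjusted p 0.44). Acot3 differed by −0.84 (interval −1.75 to 0.07) and Acot4 by −0.27 (interval −0.62 to 0.08). Arrays with and without extract did not overlap for Acot1, Acot2 and Acot3, where 5.51% of all genes were lower without overlap, and for Acot12 in the higher direction, against 6.7%. With a variance that follows the mean level and a robust prior, limma called Acot1 here as well, at an adjusted p of 0.0422, and 28 genes in all.

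Whether the extract acted differently on the 2 diets was tested as the difference of both extract effects. For Acot1 this difference was 1.14 (SE 0.23, interval 0.65 to 1.62), with the value on the high-fat diet nearer to 0. It had rank 6 by p among all genes, but the limma adjusted p was 0.664, and 0 of the 8 members were called in a comparison where 0.0% of genes were. Of all genes, 5.09% had an unadjusted p under 0.05, and Acot1 was the only member that did. For Acot2 the difference was 0.54, with an interval of −0.22 to 1.31 that includes both 0 and the value of Acot1. For Acot3 it was 0.52 (interval −0.76 to 1.81), or −0.07 without the third low-fat MSX array, and for Acot4 0.39 (interval −0.11 to 0.89).

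Averaged over both diets, Acot1 fell by 1.39 (SE 0.11), a level 2.63-fold lower with extract, and Acot2 fell by 1.22 (SE 0.18), 2.33-fold lower. Their limma adjusted p were 9.0e-05 and 0.00925, and 2 of 8 members were called where 0.261% of genes were, or 58. Both calls held when any 1 array was left out, and 4 members had an unadjusted p under 0.05, as did 9.66% of genes. These were also the 2 members whose 6 MSX arrays all lay below the 6 controls, as was so for 0.455% of genes. Acot3 differed by −1.10 (SE 0.30, adjusted p 0.194) and Acot4 by −0.46 (SE 0.12, adjusted p 0.144). This average shares its arrays with the comparisons on each diet and is not separate evidence.

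**Figure D2:**
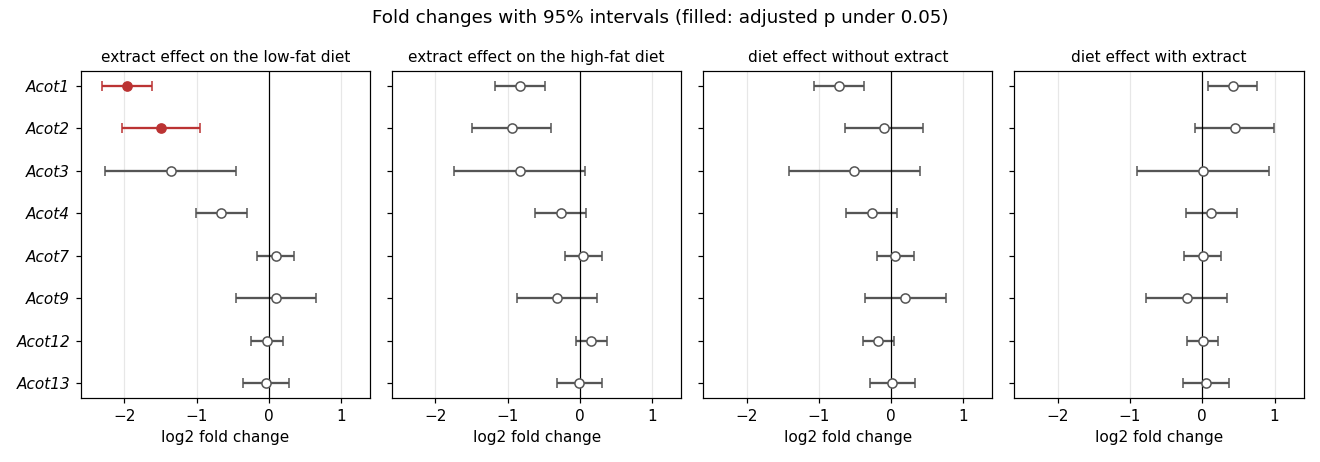
Log2 differences of the 8 thioesterases with 95% intervals from limma, by comparison. The intervals of Acot1 and Acot2 lie below 0 for the extract on both diets, and the intervals of Acot7, Acot9, Acot12 and Acot13 include 0.

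No thioesterase was called for the diet. Between the control groups 0 of 8 members were called, where 0.018% of genes were (4), and Acot1 was the only member with an unadjusted p under 0.05, as 6.78% of genes had. Acot1 was lower in the high-fat controls by −0.72 (SE 0.16, interval −1.06 to −0.37, limma adjusted p 0.278), and with 1 array left out this difference ranged from −0.88 to −0.56. Acot2 differed by −0.10 (interval −0.64 to 0.45), Acot3 by −0.51 and Acot4 by −0.27. Groups did not overlap for Acot1 and Acot12, where 6.1% of genes were lower without overlap.

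In mice given the extract the order of Acot1 was turned, with the high-fat level above the low-fat level by 0.42 (SE 0.16, interval 0.08 to 0.76, limma adjusted p 0.999). The groups did not overlap, as in 4.68% of genes that were higher. In this comparison 0 of 8 members were called and 0.0% of genes, and 4.56% of genes had an unadjusted p under 0.05. For the diet averaged over both extract states, 0 of 8 members were called, against 0.0225% of genes (5), and 0 members had an unadjusted p under 0.05, against 5.94% of genes. The averaged diet difference of Acot1, −0.15, is the mean of the opposite values −0.72 and 0.42.

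Across the 12 arrays the genes nearest in pattern to Acot1 were Cyp4a31, Slc27a1, Lamb3, Abhd2 and Retsat. Nearness was the root mean square difference between log2 values centred on each gene's mean, and for these genes it was 0.31 to 0.45, where the pattern of Acot1 itself had a root mean square of 0.77. Acot2 ranked 9 in nearness to Acot1 among all other genes, Acot4 35 and Acot3 183. The genes nearest to Acot2 were Fgf21, Slc27a1, Gpat3, Flvcr2 and Igtp, at 0.28 to 0.40 against 0.70 for the pattern itself. Acot3 ranked 33 in nearness to Acot2, Acot1 38 and Acot4 71. These arrays also set the calls above, so the nearness is a description.

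**Figure D3:**
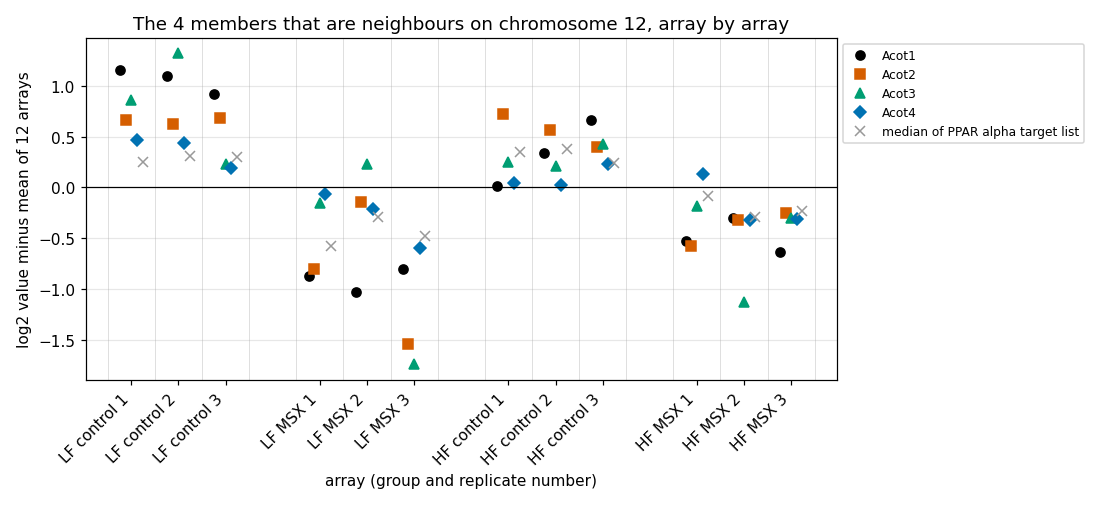
Log2 values of Acot1, Acot2, Acot3 and Acot4 minus each gene's mean over the 12 arrays. The median of the same quantity over 16 genes listed as fasting-induced and other PPAR alpha targets is also shown. All 6 arrays with MSX lie below 0 for Acot1, Acot2 and the target list, and all 6 controls lie above 0; LF and HF stand for the low-fat and high-fat diet.

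Of 11 other Acot, Them and related genes measured, 0 were called on the low-fat diet, and their median difference was 0.04. Acot5 and Acot6, which close the run on chromosome 12, differed by −0.08 and 0.00, with mean levels of 2.92 and 4.32 that lie below the median of all probe sets. Acnat2, an amino acid N-acyltransferase related to the type I thioesterases, had means of 7.12 ± 0.30 in low-fat control, 6.33 ± 0.09 in low-fat MSX, 8.11 ± 0.27 in high-fat control and 6.82 ± 0.63 in high-fat MSX (SD, n = 3). It fell by 1.05 with extract on average (limma adjusted p 0.029), the only gene of the 11 that was called there.

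Of the 11 other enzymes that hydrolyse acyl-CoA or acyl thioesters, 0 were called on the low-fat diet, with a median of 0.08. Nudt7, which splits coenzyme A and acyl-CoA in peroxisomes, rose by 0.94 with extract on average (limma adjusted p 0.0082), with 0.79 on the low-fat and 1.09 on the high-fat diet. Of 20 acyl-CoA synthetases, the enzymes that act against the thioesterases, 1 was called on each diet. This was Slc27a1, a fatty acid transporter with synthetase activity, which fell by 1.12 on the low-fat diet (adjusted p 0.00137) and by 0.97 on the high-fat diet (adjusted p 0.00783), both in limma. Among 11 acyl-CoA binding proteins, Fabp5, a fatty acid binding protein, rose by 1.24 on the low-fat diet (adjusted p 0.0049 in limma), and 0 were called on the high-fat diet.

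The steps that use acyl-CoA for oxidation held few called genes. On the low-fat diet 0 of 10 carnitine shuttle genes and 0 of 17 mitochondrial beta oxidation genes were called, with medians of −0.22 and −0.26. In the mitochondrial list 15 of 17 differences were below 0, against 50.3% of all genes. On the high-fat diet 8 of the 17 were below 0, against 48.4% of all genes, with a median of 0.01. Of 16 peroxisomal beta oxidation genes, 1 was called on the low-fat diet: Ehhadh, the bifunctional enzyme of that pathway, fell by 0.91 (adjusted p 0.0338 in limma). In this list 12 of 16 differences were below 0 on the low-fat diet and 11 on the high-fat diet, with medians of −0.21 and −0.15. Averaged over both diets 1 of the 16 was called: Pex11a fell by 0.54 (limma adjusted p 0.0182). For the high-fat groups 0 genes of these 3 lists were called. By mean level the third low-fat MSX array was the lowest of all arrays in each of the 3 lists. It stood at 9.09 for the carnitine shuttle, 9.63 for the mitochondrial and 9.80 for the peroxisomal list. The other low-fat MSX arrays also lay below the low-fat controls in each. Of 13 genes of coenzyme A synthesis and recycling, 0 were called on either diet. The third low-fat MSX array was the lowest for this list as well, at a mean level of 8.01.

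A list of fasting-induced and other targets of PPAR alpha, without the members, had 16 genes measured. Of these, 5 were called lower on the low-fat diet, where 0.0947% of all genes were, and 0 higher. The list had a median of −0.72, and all 16 differences were below 0, against 50.3% of all genes. They were Cyp4a31 (−1.60) and Cyp4a14 (−1.60), omega hydroxylases of fatty acids, Plin4 (−1.20), a lipid droplet protein, Fgf21 (−1.51), a hormone of fasting, and G0s2 (−0.85), an inhibitor of lipolysis. Cyp4a14, Fgf21 and G0s2 lay just inside the threshold, each with a limma adjusted p of 0.0492, as did Thrsp below. On the high-fat diet 2 of the 16 were called lower, where 0.0361% of all genes were called in either direction. The list had a median of −0.52 there and 13 differences below 0, against 48.4% of all genes. The 3 above 0 were Cyp4a12a (0.53), Cyp4a12b (1.06) and Creb3l3 (0.06), of which none was called. The lowest difference of the list was −2.33 on the high-fat diet and −1.68 on the low-fat diet. The low-fat value is that of Cidec, which was not called there (limma adjusted p 0.24). Averaged over both diets 8 of the 16 were called lower and 0 higher, where 0.261% of all genes were called. Ppara itself differed by −0.05 on the low-fat and −0.03 on the high-fat diet, and 0 of 10 regulator genes were called on either. Averaged over both diets 1 of the 10 was called: Pparg, the PPAR of fat storage, fell by 0.86 (limma adjusted p 0.0153), with −0.60 on the low-fat and −1.12 on the high-fat diet. Of 14 genes of fatty acid synthesis, 2 were called on the low-fat diet, where 0.158% of all genes were called in either direction. Both were higher, Fasn by 1.54 and Thrsp by 1.92. The list had a median of 0.66, with 12 differences above 0 and 2 below, against 50.3% of all genes below 0. On the high-fat diet Fasn and Thrsp differed by 0.01 and 0.10, and 0 of the list were called.

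Markers of hepatocytes and of other cells and tissues were set beside these values, and 0 of them were called for the extract on either diet. On the low-fat diet all 10 stellate cell markers (median 0.22), all 8 endothelial markers (median 0.25) and 8 of 10 macrophage markers (median 0.29) were above 0. The median of each list per array, relative to each gene's mean over the 12 arrays, overlapped between the low-fat groups in all 8 lists. It lay from −0.30 to −0.04 in controls and −0.08 to 0.30 with extract for the stellate cell list, and from −0.37 to 0.16 and −0.17 to 0.28 for the macrophage list. By mean level the hepatocyte list did not overlap, with 11.74 to 11.82 in low-fat control and 11.83 to 11.92 in low-fat MSX. Between the high-fat groups 8 of 10 stellate cell markers were below 0, and all 9 hepatocyte markers (median 0.06) and all 6 pancreas and gut markers (median 0.11) were above 0. The cholangiocyte list, with 5 genes measured, did not overlap there by medians per array, with −0.06 to 0.74 in controls and −0.17 to −0.08 with extract. By mean level it did overlap, with 4.69 to 5.29 in controls and 4.61 to 4.72 with extract. The part of these shifts in the thioesterase values was not tested.

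**Figure D4:**
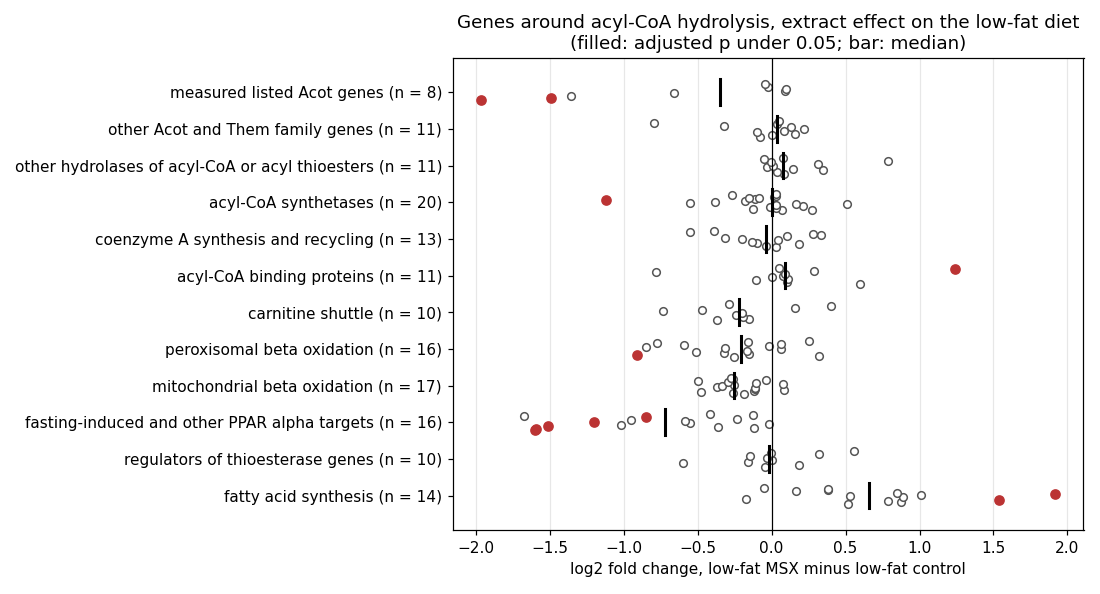
Log2 difference with extract of the thioesterases and of the other genes of acyl-CoA handling, on the low-fat diet. Each point is a gene, and the PPAR alpha target list has its median at −0.72.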

How the data were processed

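Liver RNA of 12 samples was hybridised to Affymetrix arrays. The authors deposited 1 log2 value per probe set and array. Not given in the sources used here are the version of Transcriptome Analysis Console, the tool named in the submitters' processing notes, the normalization and the build of the probe design. Values were used as deposited, since array medians lay close together.

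Of 41345 probe sets, 23521 had 1 symbol in the platform annotation, 1814 had several and 16010 were not listed. The probe set of highest mean stood for a gene. Type I thioesterases are close paralogs, and how far their probes cross-react is not known here, since protein and probe sequences were not used.

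A model of 4 group means was fitted to all 12 arrays with limma 3.58.1 in R 4.3.3 (two-sided, Benjamini-Hochberg over 22180 genes, 8 residual and 5.18 prior degrees of freedom) and tested on simulated data. Precision is limited by the number of arrays, since exact permutation of 3 against 3 reaches no p below 0.1. The labels call the arrays biological replicates, and no batch or date is given. Alternatives were a replicate block, only the groups compared, quantile and median scaling, a filter on dim genes, other choices of probe set, another variance model and leaving out each array.

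The members, gene lists and tests were chosen with earlier results of these data known. Named genes were all members, the list genes called where a member was called (at most 4 per list) with up to 3 more by p, and the 5 nearest patterns of a called member. A part of them is printed. Promoter sequences are from RefSeq (GRCm38.p6) and matched 8 of the 9 members.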

Additional observations from a re-analysis of the deposited data

How the results depend on the processing

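Over the 8 members, 7 comparisons and all alternatives, 1022 differences kept their direction and their side of the threshold, 12 were no longer called, 1 became called and 54 changed sign, none of them called. The 12 lost calls were all of Acot2 on the low-fat diet. That call was lost with a replicate block (adjusted p 0.0792) and with only the groups compared (0.204), so that 1 member was called under each, and leaving out an array gave 1 to 2. With trend and robust eBayes, 1 member (Acot1) was called for the extract on the high-fat diet. Members called stayed at 2 for the average extract effect and at 0 for the other 4 comparisons, also with any 1 array left out.

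The counts over all genes depended more on the processing. The replicate block gave 20 genes for the extract on the low-fat diet and 5 on the high-fat diet, and only the groups compared gave 10 and 2. The filter on dim genes gave 67 and 14, with 10 for the diet without extract, 147 for the average extract effect and 11 for the average diet effect. Trend and robust eBayes gave 77 and 28, with 11, 151 and 11 in the same order. The mean of the probe sets of a gene gave 23 on the low-fat diet. Leaving out 1 array gave 6 to 28 genes for the extract on the low-fat diet and 2 to 10 on the high-fat diet. It gave 1 to 7 for the diet without extract, 0 to 1 for the diet with extract, 0 to 1 for the difference of the extract effects, 34 to 63 for the average extract effect and 1 to 7 for the average diet effect. The causes were not tested.

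Whether replicate numbers pair the samples was not settled, since deviations from a group mean cancel within each group. Those of same-numbered arrays correlated at −0.126 to 0.112 over 18 pairs of arrays, and those of other pairs at −0.0947 to 0.164. Between the high-fat control and high-fat MSX arrays, same-numbered pairs lay at 0.0798 to 0.112 and other pairs at −0.0885 to −0.00157. Between the low-fat control and low-fat MSX arrays, same-numbered pairs lay at −0.0646 to −0.0165 and other pairs at −0.0414 to 0.0821. The filter on dim genes leaves out Acot9, which then has no value. The planned comparison of protein sequences was not run.

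The differences that changed sign did so when an array was left out, except that of Acot13 for the extract on the high-fat diet, which was also 0.0089 with each array centred on its median. With 1 array left out, the diet effect without extract ranged from −0.0396 to 0.16 for Acot7, −0.083 to 0.36 for Acot9 and −0.088 to 0.11 for Acot13. The effect of the extract ranged from −0.057 to 0.14 for Acot7 and −0.097 to 0.082 for Acot13 on the high-fat diet, and from −0.13 to 0.25 for Acot9, −0.073 to 0.019 for Acot12 and −0.15 to 0.051 for Acot13 on the low-fat diet. In mice given extract the diet effect ranged from −0.58 to 0.41 for Acot3, −0.026 to 0.24 for Acot4, −0.022 to 0.058 for Acot7, −0.36 to 0.016 for Acot9, −0.021 to 0.019 for Acot12 and −0.043 to 0.15 for Acot13. The difference of the extract effects ranged from −0.071 to 0.92 for Acot3, −0.15 to 0.048 for Acot7 and −0.0605 to 0.14 for Acot13. The average extract effect ranged from −0.22 to 0.032 for Acot9 and −0.079 to 0.021 for Acot13, and the average diet effect from −0.0014 to 0.35 for Acot2, −0.016 to 0.082 for Acot7, −0.15 to 0.11 for Acot9 and −0.019 to 0.086 for Acot13.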
